A study of Mus musculus with 3 samples.

Results

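The glial cell line-derived neurotrophic factor (GDNF) family was read in cells sorted from the superior cervical ganglion of mice, the uppermost of the sympathetic chain. Its 9 genes are the 4 ligands Gdnf, Nrtn, Artn and Pspn, the 4 co-receptors Gfra1, Gfra2, Gfra3 and Gfra4, and the receptor kinase Ret. They were taken by gene name from the 52550 genes of the deposited table, and each name occurred once. The 3 libraries form 1 group, labelled biological replicates 1, 2 and 3, so no treatment or genotype was compared. All came from male LepRCRE::Ai32 mice aged 10 weeks, in which Cre recombinase made from the leptin receptor gene switches on a fluorescent channelrhodopsin. Live fluorescent cells were sorted and made into Smart-Seq2 libraries, which copy RNA along its length and amplify the cDNA. Such a reporter stays on in cells that made Cre at any earlier time, and no label or file gives the number of cells or animals per library.

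The ligands are secreted dimers. Each prefers 1 co-receptor held in the membrane by a lipid anchor: GDNF binds the product of Gfra1, neurturin (Nrtn) that of Gfra2, artemin (Artn) that of Gfra3 and persephin (Pspn) that of Gfra4. The ligand and co-receptor together bring molecules of Ret, a transmembrane tyrosine kinase, into contact, and Ret then signals through the Ras-MAP kinase and PI3-kinase routes. The neural cell adhesion molecule can serve as another partner for GDNF and Gfra1 where Ret is missing. In sympathetic ganglia the family is best known from neurons, whose precursors follow artemin along blood vessels, and Schwann cells of nerve are known to carry co-receptors without Ret.

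The co-receptor genes are paralogs, so whether reads of one could be counted for another was looked at first. Gfra1 and Gfra2, the closest in shared runs, were identical at 62.6% of the 1336 aligned bases of their coding sequences in GENCODE M21. Their longest identical run was 28 bases, and any other pair among Gfra1, Gfra2, Gfra3, Gfra4 and Ret shared a run of at most 12 bases. The coding sequences are 1404 bases long in Gfra1 and 1392 in Gfra2, and no stretch longer than that run is identical between them.

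Depth was similar between libraries. Whole reads recovered from the values came to 8239023, 8038873 and 7721977 on genes in replicates 1, 2 and 3, and 17822, 18417 and 18948 genes had a read. Levels are in TPM, which divides reads by gene length and scales each library to the same sum. Per kb of gene, a read equalled 0.391 to 0.418 TPM. Lepr had 363, 32.1 and 54.0 TPM. Single genes varied widely between these libraries: of 10942 genes with a read in every library, 40.6% differed by 10-fold or more between the highest and the lowest, a fold chosen after the values were seen. The labels call the replicates biological but name no separate animals, so biological and technical spread between them cannot be told apart.

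The ligand genes were at or near the limit of detection. Gdnf (ENSMUSG00000022144.3, chromosome 15, 7810846 to 7837575) encodes the founding ligand and had 0 reads in all 3 libraries. For a count of 0 the limit given here is the level of 3 reads, close to the one-sided 95% Poisson limit and under the 3.69 reads at which the two-sided interval ends. At that depth 3 reads of Gdnf would have been 0.335, 0.334 and 0.357 TPM. Nrtn (chromosome 17, 56751325 to 56757530), the ligand of Gfra2, also had 0 reads in each, where 3 reads would be 1.15, 1.15 and 1.23 TPM. Pspn (chromosome 17, 56999457 to 57000018) had 0 reads too. Its annotated exons span 474 bases, so 3 reads would be 2.48, 2.47 and 2.65 TPM, the highest limit among the members. Artn (chromosome 4, 117926162 to 117929763), the ligand of Gfra3, had 0, 1 and 0 reads, and the read in replicate 2 was the only ligand read in the 3 libraries. Because amplified reads carry no molecular identifiers, these limits and the intervals given below cover counting error only.

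Gfra2 was the most abundant member, but in 2 of the 3 libraries only. Gfra2 (ENSMUSG00000022103.9, chromosome 14, 70890120 to 70979838), the neurturin co-receptor, had 83.2, 84.7 and 2.08 TPM in replicates 1, 2 and 3, from 736, 750 and 17 reads. Replicates 1 and 2 were alike, and replicate 3 was far below them. The 95% exact Poisson intervals ran from 77.3 to 89.4 TPM in replicate 1, from 78.7 to 90.9 in replicate 2 and from 1.20 to 3.29 in replicate 3. In the first and second libraries Gfra2 stood above 87.4% and 88.4% of genes with a read, and in the third above 52.9%. Its mean was 56.7 ± 47.3 TPM (SD, n = 3). The mean of log2(TPM + 1), a scale that understates differences of low genes, lay above its value at 1 TPM by 3.81 ± 1.27 (SE), higher in 3 of 3 libraries, and did not pass limma's moderated test (two-sided, Benjamini-Hochberg over 27391 genes, adjusted p = 0.105). Without replicate 3, the library where Gfra2 was low, the difference was 5.41 and passed (limma, adjusted p = 0.0359). In that setting 2435 of the 27391 genes were called above. It also passed with a pseudocount of 0.1 (limma, adjusted p = 0.044, when 19.3% of all genes passed) and with a mean-variance trend (adjusted p = 0.000218), and over all 12 alternatives the adjusted p ran from 0.000218 to 0.39.

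Gfra3, the artemin co-receptor, followed a different order of libraries. Gfra3 (ENSMUSG00000024366.7, chromosome 18, 34689898 to 34720387) had 0.835, 28.1 and 6.14 TPM, from 4, 143 and 29 reads. Replicate 2 was highest and replicate 1 lowest, and none of the 3 counting intervals overlapped: 0.214 to 2.01 TPM, 23.6 to 33.0 and 4.07 to 8.74. Its mean of 11.7 ± 14.5 TPM (SD, n = 3) lay above 1 TPM by 1.86 ± 0.92 (SE) in log2(TPM + 1) and did not pass (limma, adjusted p = 0.211, and from 0.137 to 0.832 over the alternatives). The value in replicate 1 was under 1 TPM, but its interval spans that level. Replicates 2 and 3 lay above 1 TPM beyond their intervals.

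Ret, the signalling kinase, had at most 35 reads in a library and was highest in replicate 3. Ret (ENSMUSG00000030110.13, chromosome 6, 118151745 to 118197718) had 0.130, 0.361 and 2.18 TPM, from 2, 6 and 35 reads. Replicate 3 alone was above 1 TPM. Its counting interval, 1.51 to 3.01 TPM, did not overlap those of replicates 1 (0.0140 to 0.418) and 2 (0.127 to 0.755), which overlapped each other. The mean was 0.890 ± 1.12 TPM (SD, n = 3), and the difference from 1 TPM in log2(TPM + 1) was -0.24 ± 0.40 (SE; limma, adjusted p = 0.661). Without replicate 1 that difference changed sign, to 0.06 (limma, adjusted p = 0.936). Ret stood above 6.14% and 22.0% of genes with a read in replicates 1 and 2, and above 53.3% in replicate 3.

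Gfra1 had at most 12 reads in a library, and Gfra4 at most 1. Gfra1 (ENSMUSG00000025089.15, chromosome 19, 58235604 to 58455909), the GDNF co-receptor, had 0, 4 and 12 reads. That was 0.303 TPM in replicate 2 and 0.935 in replicate 3, and in replicate 1 the limit of 3 reads is 0.214 TPM. Gfra1 was thus under 1 TPM in 3 of 3 libraries, although the interval in replicate 3, 0.473 to 1.60 TPM, reached past that level (difference -0.55 ± 0.27, SE; limma, adjusted p = 0.203). A noncoding gene, Gm16277, lies on the strand opposite to Gfra1. It had 0, 0 and 1 read, and with no strand setting of the counting stated, reads of the overlap cannot be told apart. Gfra4 (chromosome 2, 131039632 to 131043088), the persephin co-receptor, had 0, 0 and 1 read, and 3 reads would be 0.542, 0.541 and 0.579 TPM.

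**Figure D1:**
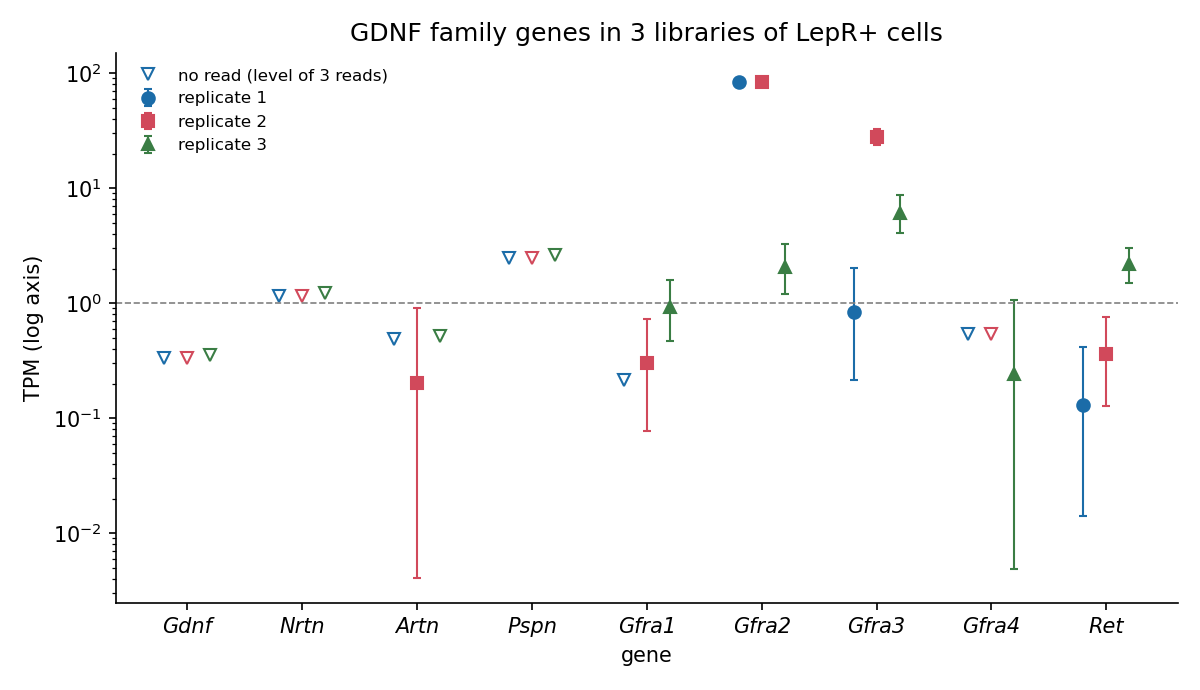
TPM of each GDNF family gene (log axis) in replicates 1, 2 and 3; filled points with bars are values with 95% Poisson intervals of their reads, open triangles mark libraries without a read at the level of 3 reads, and the dashed line is 1 TPM. Gfra2 is at 83.2 and 84.7 TPM in replicates 1 and 2 and at 2.08 in replicate 3, whereas Ret is highest in replicate 3 at 2.18 TPM.

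Of the 9 members, 6 had a read in at least 1 library and entered the test, as did 52.1% of the genes of the table. A read in every library was found for 3 members (Ret, Gfra2 and Gfra3) and for 39.9% of genes tested. Gfra2 was the 1 member at 1 TPM or more in every library, a level that 23.7% of genes tested reached. Limma called 0 members above 1 TPM, against 16.1% of all genes tested. At an unadjusted p under 0.05 it also called 0, against 5473 of the 27391 genes tested. With the mean-variance trend it called 1, which was Gfra2, against 20.4% of all genes. It called 2 members below 1 TPM, Artn and Gfra4, against 13.3% of all genes tested, and 4 neither way. Below 1 TPM it called 2 of 6 with the trend (35.2% of all genes tested), and 4 of 6 were below 5 TPM (51% of all genes tested). With no filter on reads it called 5 of 9 below 1 TPM (56.8% of all genes). Gdnf, Nrtn and Pspn enter there with only the 0.25 read added to every gene. Their calls follow from that value and do not show their level. For Nrtn and Pspn the level of 3 reads is itself over 1 TPM. Artn and Gfra4 had 1 read each, and their adjusted p-values of 0.0489 and 0.049 (limma) were just under the threshold of 0.05. In the libraries without a read their values are the added 0.25 read alone, so these calls rest largely on it. The counting interval of Gfra4 in replicate 3 reached 1.075 TPM. Both calls were lost without replicate 1 or without replicate 2, that of Artn also without replicate 3, and both also against 0.5 TPM, without mitochondrially encoded genes and with limma's robust option. Without replicate 1 or 2 limma called 0 genes of the table below 1 TPM, and 7702 and 8047 at an unadjusted p under 0.05. It also called 0 of all genes below against 0.5 TPM, without mitochondrially encoded genes and with the robust option.

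The make-up of the receptor genes changed from library to library. The 5 receptor genes summed to 84.3, 113.5 and 11.6 TPM. Gfra2 took 98.8% of that sum in replicate 1, 74.6% in replicate 2 and 18.0% in replicate 3. Gfra3 took 0.991%, 24.8% and 53.0%, and Ret took 0.154%, 0.318% and 18.8%. In reads per base of gene, Gfra2 was 719 times Ret in replicate 1, but from only 2 reads of Ret, so that the 95% interval (exact, conditional on the sum of both genes' reads) ran from 198 to 5947. The ratio was 244 (112 to 668) in replicate 2 and 0.949 (0.498 to 1.74) in replicate 3, so the genes were level there within counting error. That of Gfra3 to Ret was 6.79 in replicate 1, from 4 and 2 reads, with an interval that reached down to 0.973. It was 80.9 (36.3 to 224) in replicate 2 and 2.81 (1.66 to 4.74) in replicate 3. In bulk samples such as these, fewer cells carrying a gene and less of its RNA per cell cannot be told apart.

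**Figure D2:**
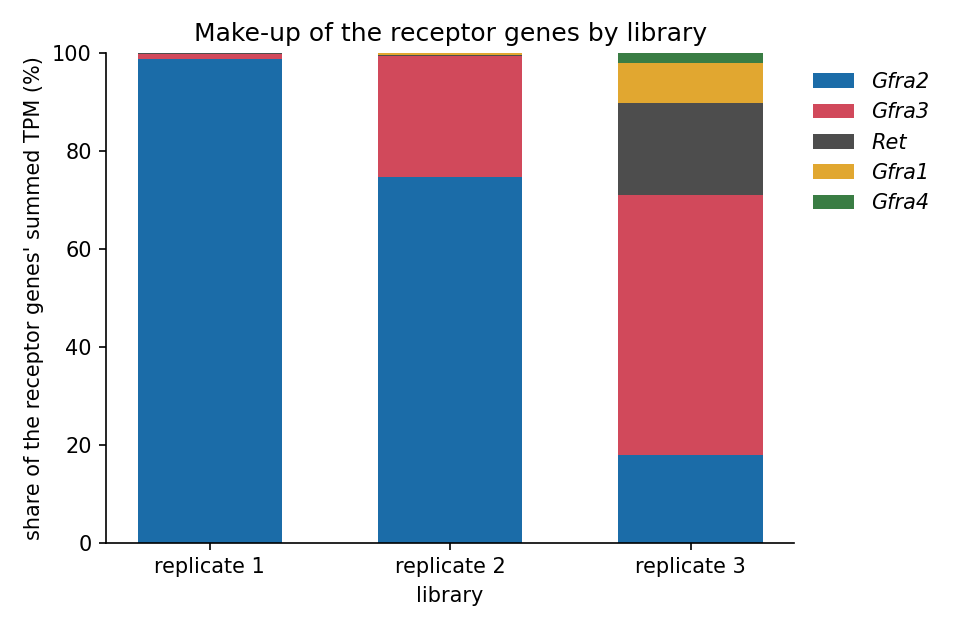
Share of the summed TPM of Ret and the 4 co-receptor genes (%) in each library, as stacked bars from the deposited values, in which a gene without a read keeps a small added value. Gfra2 fills 98.8% of the bar of replicate 1 and 18.0% of that of replicate 3, where Gfra3 takes 53.0% and Ret 18.8%.

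The levels of the 5 receptor genes were compared within each library, in 10 pairs on the log2(TPM + 1) scale. Mean levels ran from Gfra2 (4.81) through Gfra3 (2.86), Ret (0.76) and Gfra1 (0.45) to Gfra4 (0.15). In 7 of the 10 pairs, those with Gfra1 or Gfra4, a gene had no read in some library. Its value there is the 0.25 read that the deposited values hold for every gene, divided by the gene's length, so no sign was read from it. The other 3 pairs, among Gfra2, Gfra3 and Ret, had reads of both genes in every library.

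Gfra2 minus Gfra3 was 5.52, 1.56 and -1.21 in replicates 1, 2 and 3 (mean 1.96 ± 3.38, SD, n = 3), so their order turned in replicate 3. Their counting intervals were apart in 3 of 3 libraries. Ret minus Gfra3 was -0.70, -4.42 and -1.17 (mean -2.09 ± 2.03). Gfra3 was the higher beyond the intervals in replicates 2 and 3, and in replicate 1 they overlapped. Ret minus Gfra2 was -6.22, -5.98 and 0.04 (mean -4.05 ± 3.55), with overlapping intervals in replicate 3 alone. None of these means exceeded its SD by much, and that of Gfra2 minus Gfra3 was smaller than its SD.

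For pairs with Gfra1 or Gfra4, the counting intervals alone were compared. Gfra2 lay above Gfra4 beyond the intervals in 3 of 3 libraries and above Gfra1 in replicates 1 and 2. Gfra3 lay above both Gfra1 and Gfra4 in replicates 2 and 3. Ret and Gfra1 overlapped in 3 of 3 libraries, so their order was not detectable at this depth, and the same held for Gfra1 and Gfra4. Ret lay above Gfra4 in replicate 3 alone. An exact two-sided sign-flip permutation test over 3 libraries cannot go below p = 0.25 (adjusted over the 10 pairs, 0.357), so no pair could pass.

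**Figure D3:**
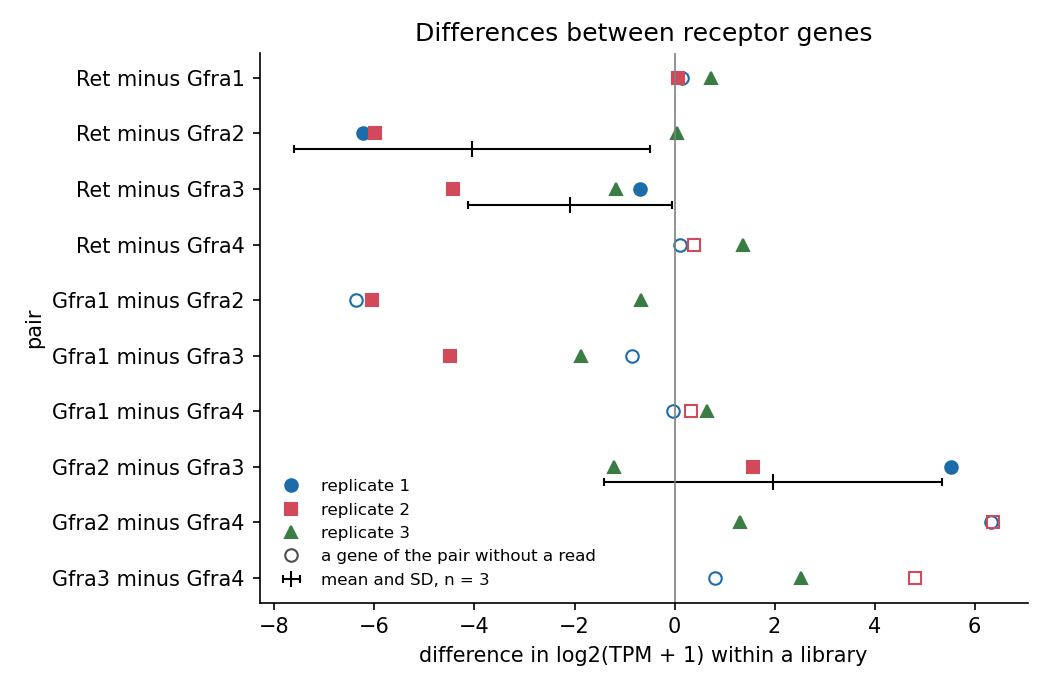
Difference in log2(TPM + 1) between the first and the second gene of each pair within a library (points, replicates 1, 2 and 3; open where a gene of the pair had no read), with the mean and SD over n = 3 below the points of pairs with reads throughout. Ret minus Gfra2 is near -6 in replicates 1 and 2 (-6.22 and -5.98) and at 0.04 in replicate 3, and Gfra2 minus Gfra3 changes sign; open points rest on the added 0.25 read.

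Markers of cell types were read in each library, and the sums of some lists differed more between libraries than those of others. Counts of list genes above 1 TPM, here and in the next paragraph, stand beside 16.1% of all genes tested. They are out of all listed genes, including those without a read, which were not tested. The 16 satellite glial and Schwann genes, of which 12 were above 1 TPM, summed to 33088, 28017 and 30141 TPM, led by the fatty acid binding protein Fabp7, the lipid carrier Apoe and the adhesion gene Cdh19 (means 14163, 8934 and 4129 TPM). These highest genes make up most of that sum, and single genes of the list varied more than it did. Kcnj10 had 56.55, 289.1 and 17.95 TPM and Mbp 12.35, 105.7 and 29.45, whereas Fabp7 had 16339, 13137 and 13012. Among single members, Gfra2 and Gfra3 differed by 40.7-fold and 33.6-fold between their highest and lowest libraries. The 12 mural genes, of vessel smooth muscle and pericytes, summed to 500, 356 and 135 TPM. Of them 5 were above 1 TPM, led by Rgs5, Mcam and Acta2, and Tagln and Cnn1 had no read. The 20 sympathetic neuron genes summed to 128, 135 and 361 TPM. Of them 2 were above 1 TPM, among them Slc18a2, the vesicular monoamine transporter, with 34.4, 49.1 and 281.5 TPM. Slc18a2 was thus most of the sum in replicate 3, and without that gene the sum was not highest there. Tubb3, a neuronal tubulin, had 0, 243 and 1 reads. Of the defining neuron markers, Npy had no read, Th had 0, 1 and 4 reads and Dbh 4, 9 and 0.

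The 14 macrophage genes summed to 4.30, 85.6 and 128 TPM, with 0 above 1 TPM (limma; also 0 unadjusted and 0 with the trend), and Tyrobp, Cd68 and Itgam highest. Tyrobp had 0, 33 and 120 reads. Cd68 had reads in replicate 2 alone, Itgam in replicate 3 alone, and Aif1 had none. Perineurial genes, which the series title names, summed to 537, 818 and 647 TPM with 4 of 16 above 1 TPM (led by the tight junction gene Cldn1, Sfrp5 and the hedgehog receptor Ptch1) and Krt19 without a read. Fibroblast genes summed to 4929, 6928 and 6957 TPM, with 7 of 12 above 1 TPM, led by Dcn, Lum and Ly6a, and Pi16 without a read. Endothelial genes summed to 365, 471 and 324 TPM with 3 of 12 above, led by Emcn, Tek and Flt1. Lymphocyte and mast cell genes summed to 8.86, 3.24 and 17.5 TPM, with 0 of 12 above (limma; 1 unadjusted, 0 with the trend), Kit, Cma1 and Mcpt4 highest, and 5 without a read (Trbc2, Nkg7, Cd79a, Cd3g and Cd8a). The part of any of these cells in the levels of Ret, Gfra2 or Gfra3 was not tested.

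Other genes of the pathway were described from lists, beside 16.1% above and 13.3% below 1 TPM and a median mean log2(TPM + 1) of 0.89 over all genes tested. List medians below are likewise over the genes with a read in at least 1 library, since a gene without one holds only the added value. For the GDNF family, that median was 0.61, from 6 of the 9 genes, the other 3 having no read. Of 13 genes for other GDNF-binding proteins and related receptors, 6 were above 1 TPM, 0 below (limma; 1 unadjusted and 1 with the trend), 5 neither and 2 without a read, with a median of 5.64. Ncam1, the adhesion molecule that can act with Gfra1, had 208, 151 and 169 TPM (176 ± 29.2, SD, n = 3; limma, adjusted p = 0.00335), so its 3 libraries lay close together. The heparan sulfate proteoglycans Sdc4 and Sdc2 had 1422 ± 148 and 164 ± 60.5 TPM, the integrin chain Itgb1 296 ± 103 and the cadherin Cdh2 60.7 ± 38.4. Gfral, a distant relative of the co-receptors, and its ligand Gdf15 had no read; 3 reads would be 0.565, 0.564 and 0.603 TPM of Gfral and 0.634, 0.633 and 0.677 of Gdf15.

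Of 45 genes that relay signals from Ret and other receptor kinases, 17 were above 1 TPM, 3 below, 21 neither and 4 had no read, with a median of 3.41. The highest were Pik3r1, a regulatory subunit of PI3-kinase (253 ± 73.0 TPM, SD, n = 3), the docking protein Gab1 (195 ± 73.3), the small GTPase Nras (152 ± 48.0), the adaptor Crk (118 ± 84.6) and the MAP kinase Mapk3 (110 ± 58.7). Limma's adjusted p for these ran from 0.00354 for Pik3r1 to 0.0312 for Crk. Of genes whose products join activated Ret, the adaptor Frs2 had 14.6, 22.1 and 15.97 TPM and the phosphatase Ptpn11 11.2, 8.05 and 9.89, close together and above 1 TPM (limma, adjusted p = 0.00708 and 0.00969). The adaptor Shc1 had 0, 23 and 673 reads (49.8 TPM in replicate 3), and Grb2 had 44.1, 11.7 and 0.752 TPM, neither past the test (limma, adjusted p = 0.483 and 0.192). These 4 were singled out after their values were seen. Frs3, Pik3r2 and Dok1 had no read, where 3 reads in replicate 1 would be 0.375, 0.281 and 0.594 TPM. Most of these genes serve many receptors.

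Of 22 regulators and targets of Ret signalling, 11 were above 1 TPM, 1 below, 8 neither and 2 had no read, with a median of 5.16. The early response gene Fos had 389 ± 146 TPM (SD, n = 3). The MAP kinase pathway inhibitors Spry2, Spred1 and Dusp6 had 139 ± 19.1, 136 ± 15.1 and 110 ± 27.0 TPM (limma, adjusted p from 0.00335 to 0.00354). Etv4, an ETS factor induced by GDNF in motor neurons and kidney, was the 1 below, with 0, 0 and 1 read. Dusp4 and Vgf had no read, where 3 reads in replicate 1 would be 0.429 and 0.395 TPM.

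Of 10 transcription factors known to act on Ret, 2 were above 1 TPM, 2 below, 4 neither and 2 without a read, with a median of 0.33. Sox10, the neural crest and glial factor, had 26.7, 165 and 51.6 TPM (limma, adjusted p = 0.0272). Hand2 had 12.5, 0.706 and 6.26 TPM, while Tlx2 had 2, 0 and 1 reads and Phox2a 3, 0 and 0. Hoxb5 had no read, where 3 reads in replicate 1 would be 0.421 TPM. Without replicate 1 or 2, limma called 0 genes of the 4 pathway lists above or below 1 TPM, as it called 0 of all genes. At an unadjusted p under 0.05, 40 and 36 of the 90 pathway genes were above, beside 4648 and 4454 of all 27391 genes. Below at that p were 12 and 11 pathway genes, beside 7702 and 8047 of all genes.

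**Figure D4:**
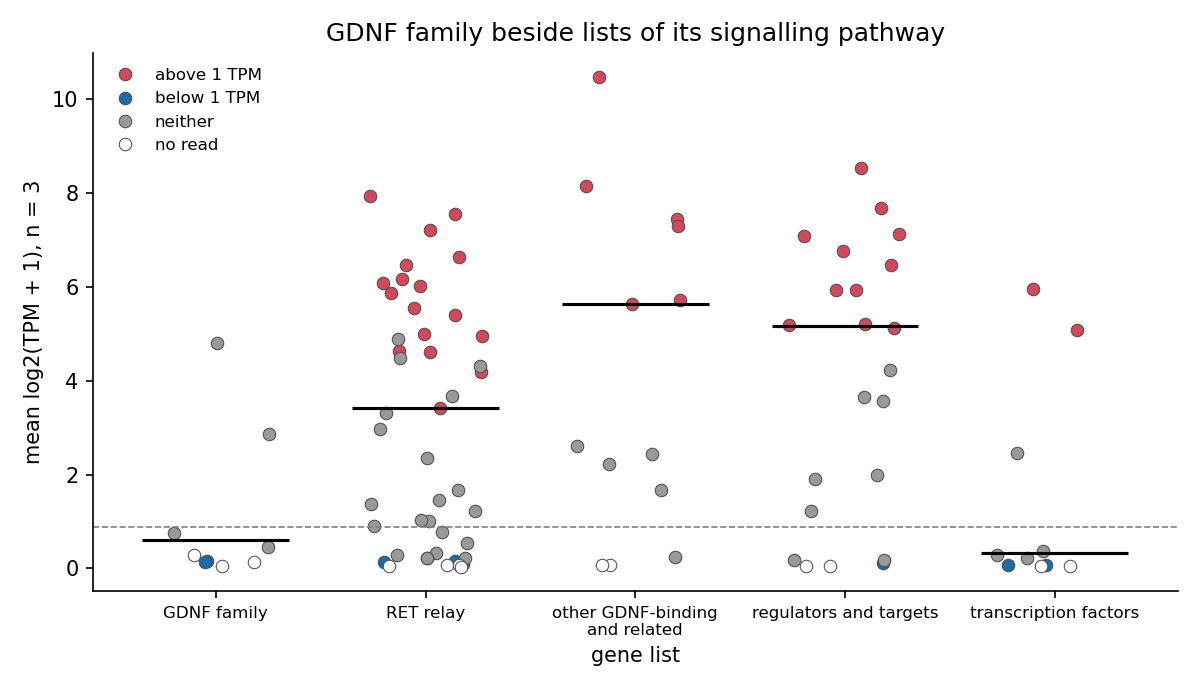
Mean log2(TPM + 1) over n = 3 libraries of each gene in the GDNF family and 4 pathway lists, coloured by limma's call against 1 TPM; black bars are medians of each list's genes with a read, and the dashed line is the same median over all genes tested (0.89). The 6 GDNF family genes with a read have a median of 0.61 and none is above 1 TPM by the test, beside medians of 3.41 for the relay list and 5.16 for regulators and targets.

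For each member with a read in every library, the 3 genes with the most similar levels were found by the root-mean-square difference in log2(TPM + 1) over the 3 libraries. Those nearest to Gfra2 were Arhgef3 (78.96, 93.3 and 1.68 TPM; difference 0.147), Stim2 (0.177) and Osgep (0.183). Nearest to Gfra3 were Galnt16 (0.888, 33.3 and 6.97 TPM; difference 0.166), Kmt5a (0.176) and Ermard (0.209). Nearest to Ret were Agfg2 (0.128, 0.332 and 1.995 TPM; difference 0.052), Zadh2 (0.079) and Camta2 (0.084), each with 27 reads or fewer in any library. This likeness is over 3 libraries of 1 group and is a description.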

How the data were processed

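The authors deposited log2 TPM per gene for 3 libraries. The tools named in the submitters' processing notes are STAR and featureCounts, with build mm10 (GRCm38); no source used here gives their versions, the annotation, the strand setting or the step to TPM. The values hold 0.25 read added to each gene. With exon lengths from GENCODE M21 (same build), or the smallest length that gave whole reads in all 3 libraries within 0.001 of a read, reads were recovered for all 52550 genes (49035, 457 and 3058 by M21 length of the same ID version, of another version, and solved; Gdnf, Gfra2 and Gfra3 are among the solved). Gene positions are those of M21.

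Genes with at least 1 read in at least 1 library (27391) were tested on the deposited values with limma 3.58.1 (R 4.3.3): mean log2(TPM + 1) against its value at 1 TPM, two-sided, prior degrees of freedom 1.2, Benjamini-Hochberg adjustment, threshold 0.05. A gene without a read carries only the added value, so its reads and the level of 3 reads are printed. Pairs were tested by exact sign flips. Intervals are exact Poisson at 95%, two-sided, and those of ratios are Clopper-Pearson. Coding sequences were aligned with Biopython 1.88. Alternatives were the pseudocount, the filter, the reference level, TPM without mitochondrially encoded genes, limma's trend and robust options, and each replicate left out.

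All 9 members are named. From each pathway list the 5 highest by mean and up to 3 genes without a read are named, and from each cell-type list the 3 highest and markers without a read; the closest genes leave out clone-like and mitochondrially encoded names. A few items that this rule would name, and a sequence, are not reported here. The members and lists were chosen with earlier results of these data known. Other work used Python 3.11.15, numpy 2.4.6, pandas 2.3.3, scipy 1.17.1, statsmodels 0.14.6 and matplotlib 3.10.9.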

Additional observations from a re-analysis of the deposited data

How the results depend on the processing

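No paired analysis was possible because the series has 1 group. Counts of calls by limma depended on the setting. Leaving out 1 replicate gave from 0 to 1 GDNF family member above 1 TPM (0 with all) and from 0 to 1 below (2 with all), from 0 to 18 pathway genes above (36) and 0 to 7 below (6), and from 0 to 20 cell-type markers above (33) and 0 to 7 below (8). The upper ends are those without replicate 3, when 2435 of all 27391 genes tested were above and 4882 below (4420 and 3631 with all). Without replicate 1 or 2, 0 of all genes were called. Above 1 TPM, 1 member was called with a pseudocount of 0.1 and 1 with a mean-variance trend, Gfra2 in each. Members, pathway genes and markers below were 5, 24 and 30 with all genes and no filter, when 56.8% of all genes were below. No-read genes then enter with the added value alone, so their calls follow from it. Against 5 TPM the counts were 4, 21 and 32 (51% of all genes). They were 0, 0 and 0 with a mean of at least 0.5 TPM required, when 15 of all genes were below. Against 0.5 TPM, without mitochondrially encoded genes and with the robust option they were again 0, 0 and 0. In each of these settings 0 of all genes were called below. With the trend, 17 of 90 pathway genes and 26 of 114 markers were below, beside 35.2% of all genes. The cause was not tested. The difference of Ret changed sign against 0.5 TPM (0.18) and without replicate 1. With 1 replicate left out it ran from -0.69 to 0.06. None of these passed the threshold. Leaving out 1 replicate moved the mean of 8 of the 10 receptor pairs by over 1.5 times. These include the 3 pairs with reads of both genes in every library. In the rest of the 8, a gene holds only the added 0.25 read in some library, so their shifts partly reflect that value. Gfra2 minus Gfra3 (1.96 with all) was 0.17 without replicate 1 and 3.54 without replicate 3, Ret minus Gfra3 (-2.09) was -0.93 without replicate 2, and Ret minus Gfra2 (-4.05) was -6.10 without replicate 3. Filtering by mean removed Artn, Gfra1 and Gfra4 from the test, so they have no value there. Depth limits Pspn most, and in replicate 1 also Gfra3, whose 4 reads leave it on neither side of 1 TPM.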
